A study of Mus musculus with 12 samples.

Results

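The genes described here encode the glutathione, thioredoxin and related antioxidant enzymes of mouse skeletal muscle. They were chosen by a rule on symbols and not on values, although earlier results of these data were known. The rule took the numbered glutathione S-transferases (Gst), microsomal glutathione S-transferases (Mgst), glutathione peroxidases (Gpx), peroxiredoxins (Prdx), thioredoxins (Txn), thioredoxin reductases (Txnrd), superoxide dismutases (Sod) and sulfiredoxin (Srxn1). It also took Gclc, Gclm, Gsr, Gss, Cat, Hmox1 and Nqo1. The rule found 50 genes on 54 transcript clusters, the probe groups of the array, among 19938 genes and 28944 transcript clusters in all. Gsta1, Gsta2, Gstp2, Prdx5 and Prdx6 have no transcript cluster with a single gene symbol and were not analysed here.

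The 12 Affymetrix Mouse Gene ST arrays, 1 per mouse, measured RNA of gastrocnemius, a hindlimb muscle. The tissue came from 6 recipients of feces from trained donors (RT) and 6 recipients of feces from sedentary donors (RS) at week 1 of fecal transplantation, and the comparison asks which muscle transcripts differ with the exercise history of the donor. All 12 recipients were male germ-free ICR mice (strain Tsl;ICR[GF]) aged 11 weeks, their labels name no engineered allele, and they ate a high-fat diet during the transplantation. Mice of a group shared housing and received the same fecal material, so cage and fecal preparation cannot be told apart from donor training, and the p-values measure the spread between these mice only.

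Glutathione is a tripeptide thiol that cells use as their main soluble reducing agent. It is built by glutamate-cysteine ligase and glutathione synthetase, spent by peroxidases and transferases, and restored by glutathione reductase with electrons from NADPH. Thioredoxins and peroxiredoxins form a parallel thiol chain, superoxide dismutases turn superoxide into hydrogen peroxide, and catalase breaks hydrogen peroxide down. The transcription factor NRF2, held back by KEAP1, activates many of these genes through antioxidant response elements. Muscle fibers produce oxidants at their mitochondria and NADPH oxidases, more so during contraction.

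To show what such an element looks like in these genes, the windows of 5 of them that hold its core letters, TGACNNNGC or the reverse complement GCNNNGTCA, are printed 5′ to 3′ with the match in capitals. The sequences are RefSeq promoters of build GRCm38.p6, which run from 250 bases before to 50 bases after the start of each gene, and 44 of the 50 genes were found in that table. Gclm, which encodes the modifier subunit of glutamate-cysteine ligase, has the window at chr3:122245408-122245446 (+ strand), Prdx1 at chr4:116685451-116685489 (+ strand), Sod1 at chr16:90220691-90220729 (+ strand), Txnrd1 at chr10:82859099-82859137 (+ strand) and Srxn1, with its match after the start site, at chr2:152105542-152105570 (+ strand).
Gclm: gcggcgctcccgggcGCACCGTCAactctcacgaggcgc
Prdx1: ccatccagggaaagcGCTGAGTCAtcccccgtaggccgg
Sod1: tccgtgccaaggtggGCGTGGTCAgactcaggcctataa
Txnrd1: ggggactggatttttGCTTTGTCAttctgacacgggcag
Srxn1: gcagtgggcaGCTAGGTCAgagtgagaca
The match in Prdx1 overlaps the letters of an AP-1 site (TGACTCA or TGAGTCA), which 5.95% of all genes hold in this window. On either strand, 9 of the 44 genes held the core (20.5%), against 14.0% of 27025 genes in the table. Gsta3, Gstm5, Gstm7 and Mgst1 were the others with a match. None of the 8 genes called higher in RT that have a promoter in the table held it (0 of 8), and 9 of the 36 genes that were not called did. A match is a run of letters and not a binding site, and the windows do not cover distal elements.

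A gene was called when its unadjusted p in limma was under 0.05 and its Benjamini-Hochberg adjusted p over all 28944 transcript clusters was under 0.1, which are the thresholds of the study's methods. Of the 50 genes, 9 were higher in RT than in RS, 0 were lower and 41 did not pass. The 9 were Gpx8, Nqo1, Gpx1, Txn1, Cat, Prdx4, Gstm1, Gstt1 and Hmox1. Over all genes, 13.9% were called higher and 10.7% lower. The median log2 change, RT minus RS, was 0.14 over the antioxidant genes with a range of -0.34 to 0.73, and 39 of the 50 changes were above 0. Over all genes the median was 0.0083, and 10235 of the 19938 changes were above 0.

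**Figure D1:**
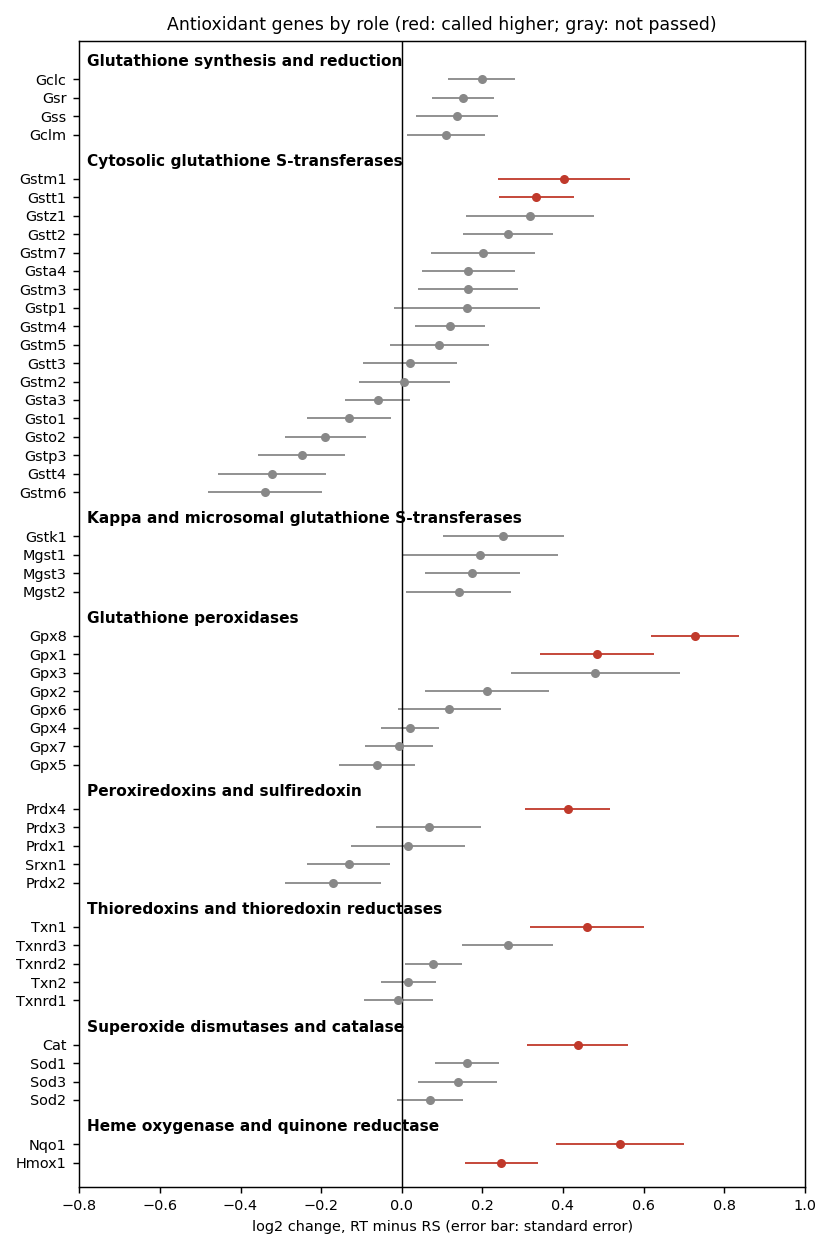
Log2 change of each antioxidant gene (RT minus RS, x axis) with its standard error, grouped by role, with 6 mice per group. The 9 genes in red were called higher in RT and the other 41 are gray; the red points are spread over 6 of the 8 roles, with Gpx8 farthest to the right at 0.73.

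The share of genes called varied with signal, and most antioxidant genes are bright. Among transcript clusters above the median signal of the array, 9 of 40 antioxidant genes were called higher and 0 lower, with a median log2 change of 0.16. All genes in this signal range were called higher in 22.9% of cases and lower in 6.82%, with a median of 0.10. Below the median signal, 0 of 10 antioxidant genes were called in either direction with a median of -0.06, against 3.42% of all genes called higher, 15.2% called lower and a median of -0.085. The count of antioxidant genes called higher was therefore close to that of other genes of like signal.

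**Figure D2:**
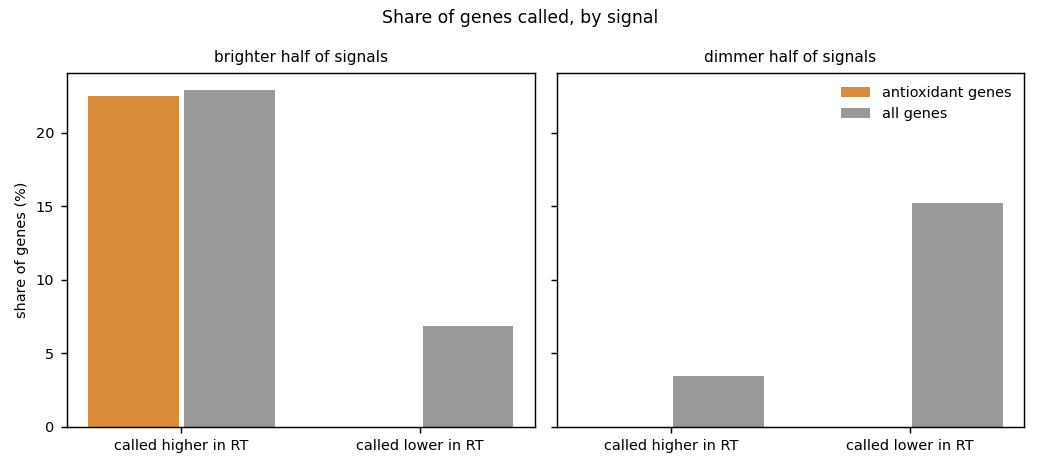
Share of genes called higher or lower in RT (percent, y axis) for the antioxidant genes (orange) and all genes (gray), for transcript clusters above (left) and below (right) the median signal. Above the median, 9 of 40 antioxidant genes and 22.9% of all genes were called higher.

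The arrays RS-4 and RS-6 stood apart from the other 10. Their signals had an SD over transcript clusters of 1.97 and 1.99, against 2.06 to 2.15 in the others, and their first principal component scores were 43.0 and 43.4, against -30.8 to 21.2 in the others. RS-1, at -4.74, was the RS array nearest to the RT arrays. With these arrays left out, limma called 5 antioxidant genes higher in RT (Gpx8, Gstt1, Prdx4, Sod1 and Txn1) and 1 lower (Prdx2), beside 6.62% of all genes called higher and 4.12% called lower. Without RS-1 it called 18 higher and 1 lower, beside 18.2% of all genes called higher and 14.2% called lower. The shares for these fits cover genes of any signal, whereas 40 of the 50 antioxidant genes lie above the median signal. No share for that range was computed in these fits, so no excess over genes of like signal can be read from them. Leaving out RS-1 raised the transcript clusters called from 3445 to 4573 higher and from 3764 to 4806 lower.

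Markers of the muscle fiber were high in every mouse, as the tissue label implies. The 10 fiber markers, among them Acta1, Ckm and Myh4, had a mean log2 signal of 12.33 to 12.40 in RT and 12.19 to 12.40 in RS, and 0 of 10 were called. Their single mean signals, 11.34 to 12.97, lay near the highest of any gene (13.07), and how well differences show at that level was not tested. Markers of several other cell types were higher in RT, where 13.9% of all genes were called higher. Above the median signal 22.9% of all genes were called higher, and below it 3.42%. Above it lay 9 of 13 macrophage, all 9 fibroblast and matrix, all 9 endothelial and 5 of 7 adipocyte markers. The same held for 1 of 9 neutrophil and mast cell markers and for 2 of 2 erythrocyte markers. Of the macrophage markers, 9 of 13 were higher in RT, and their mean signal was 5.21 to 5.49 in RT and 4.61 to 5.04 in RS. All 9 fibroblast and matrix markers were higher, with a mean signal of 8.59 to 8.95 in RT and 7.49 to 8.62 in RS. For endothelial markers 7 of 9 were higher, with 6.87 to 7.19 in RT and 6.32 to 6.77 in RS, and for adipocyte markers 4 of 7 were higher, with 5.47 to 6.49 in RT and 5.07 to 5.52 in RS. Of neutrophil and mast cell markers 2 of 9 were higher, the mast cell genes Cpa3 and Mcpt4. The mast cell gene Tpsb2 (adjusted p = 0.181 by limma) and the 6 neutrophil genes did not pass. The mean signal of these 9 markers was 3.48 to 3.71 in RT and 3.36 to 3.66 in RS. Of the 2 erythrocyte markers measured, Alas2 was higher by 1.01 (adjusted p = 0.00047 by limma) and Slc4a1 did not pass (0.035, adjusted p = 0.821 by limma), with a mean signal of 4.95 to 5.44 in RT and 4.49 to 4.96 in RS. With RS-4 and RS-6 left out, the counts were 9 of 13 for macrophage, 6 of 9 for fibroblast and matrix, 4 of 9 for endothelial and 3 of 7 for adipocyte markers. In that fit, 6.62% of all genes of any signal were called higher. In bulk tissue, more cells of a type and more RNA per cell cannot be told apart, and the part of these cells in the changes described here was not tested.

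The counts by role below are small. They are read against all genes, of which 13.9% were called higher, and 22.9% above the median signal. Glutathione synthesis and reduction had the narrowest range of changes among the 8 roles. None of its 4 genes was called, and all 4 changes lay between 0.11 and 0.20 on the log2 scale. Gclc, the catalytic subunit of glutamate-cysteine ligase, had a log2 signal of 6.07 at the lowest, 6.18 at the median and 6.37 at the highest in RT, and 5.90, 5.94 and 6.15 in RS. In 3 RT mice Gclc exceeded every RS mouse, and the difference of 0.20 ± 0.08 (SE, n = 6 each) had an adjusted p of 0.108 in limma, just outside the threshold. Gclm ranged from 5.73 to 6.09 around a median of 5.79 in RT and from 5.57 to 6.01 around 5.705 in RS (0.11 ± 0.10, adjusted p = 0.449 by limma). For Gclm, 4 RS mice lay below every RT mouse and the other RS mice within the RT range. Gsr, glutathione reductase, differed by 0.15 (adjusted p = 0.183 by limma), with 5 of 6 RT mice above every RS mouse. Gss, glutathione synthetase, differed by 0.14 (adjusted p = 0.366 by limma).

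Glutathione peroxidases reduce hydrogen peroxide and lipid peroxides with thiols, and 2 of the 8 were higher in RT. Gpx8, a peroxidase anchored in the endoplasmic reticulum membrane, had the largest change of all 50 genes. Its log2 signal was 5.82, 5.98 and 6.27 (lowest, median and highest) in RT and 4.91, 5.27 and 5.54 in RS. The lowest RT mouse was thus above the highest RS mouse, which held for 2 of the 50 antioxidant genes and for 3.36% of all genes. The opposite, RT wholly below RS, held for 0 antioxidant genes and 2.13% of all genes. The means were 6.00 ± 0.17 in RT and 5.28 ± 0.22 in RS (SD, n = 6 each), and the change of 0.73 ± 0.11 had an adjusted p of 0.00121 in limma. An exact permutation test over the 924 splits of the mice gave a two-sided p of 0.00216, the smallest it can give.

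Gpx1, the abundant selenium-containing peroxidase of cytosol and mitochondria, was at 7.00, 7.40 and 7.82 in RT and at 6.52, 7.07 and 7.14 in RS. Only RT-5, at 7.00, fell within the RS range, and RS-4 (6.55) and RS-6 (6.52) were the lowest of all. The change was 0.48 ± 0.14 (adjusted p = 0.0311 by limma), and with those arrays left out it was 0.30 (adjusted p = 0.159 by limma). Gpx3, the secreted plasma form, had nearly the same change, 0.48 ± 0.21, but did not pass (adjusted p = 0.123 by limma). Its RS mice were widely spread, from 6.13 to 7.65, against 7.22 to 7.81 in RT, and RS-4 (6.47) and RS-6 (6.13) were again the low ones. The change of Gpx3 was 0.30 without RS-6 alone and 0.12 without both (adjusted p = 0.590 by limma). Gpx4, which reduces peroxides within membranes, lay between 8.54 and 8.76 in RT and between 8.48 and 8.68 in RS and differed by 0.02 (adjusted p = 0.871 by limma). Gpx7, another peroxidase of the endoplasmic reticulum, differed by -0.01 (adjusted p = 0.966 by limma). Gpx2, Gpx5 and Gpx6 did not pass. Without RS-1, 4 of the 8 peroxidases were called higher, beside 18.2% of all genes of any signal. RS-1 is the RS array nearest to the RT arrays, and without it more genes were called in both directions.

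**Figure D3:**
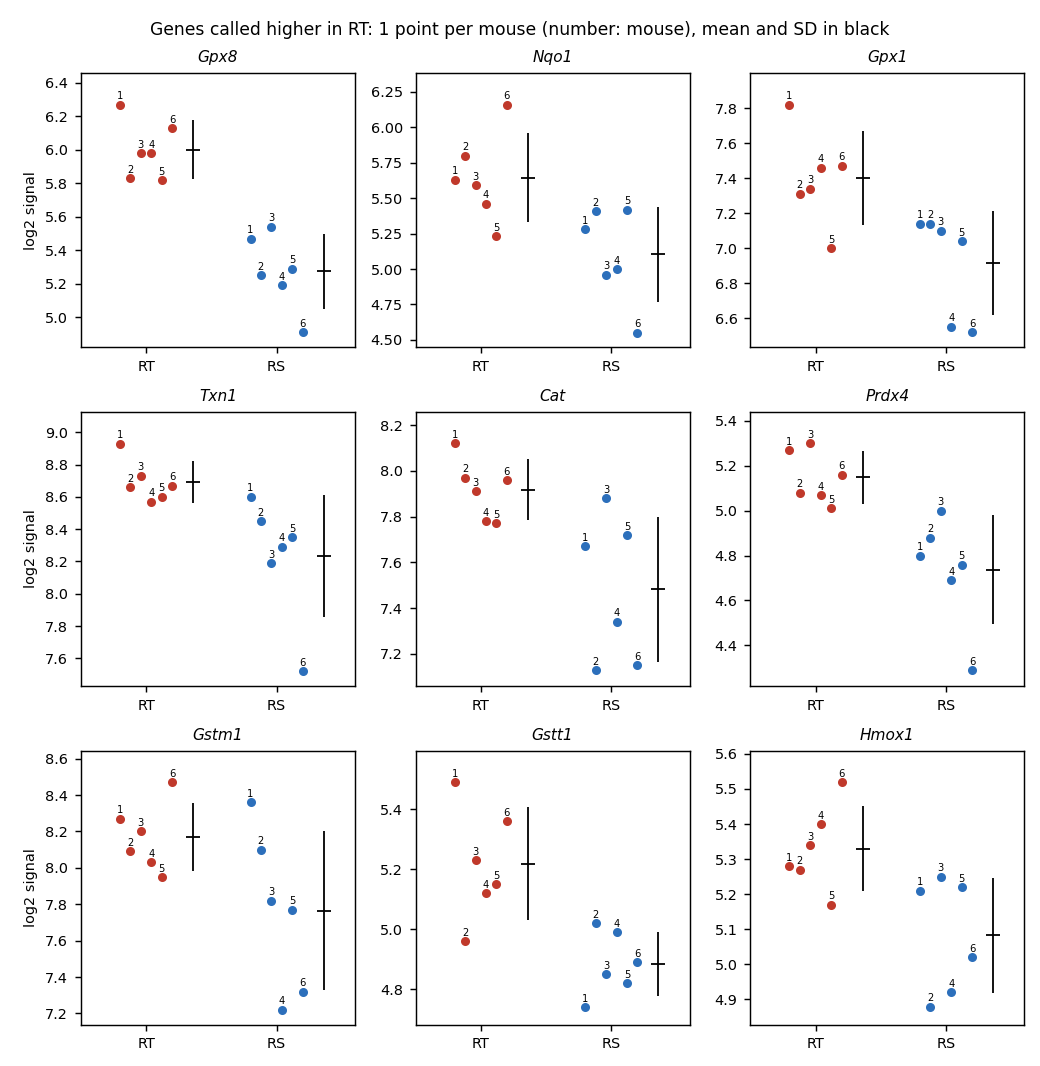
Log2 signal (y axis) of the 9 genes called higher, 1 point per mouse with its number, RT in red and RS in blue, with mean and SD in black. The groups are separate in Gpx8 and Prdx4, while the RS points of Gpx1 and Gstm1 split, with RS-4 and RS-6 lowest.

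Peroxiredoxins reduce hydrogen peroxide through a cysteine, and 1 of the 5 genes of this role was called. Prdx4, the form of the secretory pathway, had signals of 5.01, 5.12 and 5.30 in RT and 4.29, 4.78 and 5.00 in RS. Its groups did not overlap, although the lowest RT mouse and the highest RS mouse were adjacent. The change of 0.41 ± 0.11 had an adjusted p of 0.0188 in limma, and the exact permutation p was 0.00216. The cytosolic forms did not pass. Prdx1 differed by 0.015 (adjusted p = 0.952 by limma), with RT at 7.73 to 8.08 within the RS range of 7.29 to 8.24. Prdx2, abundant in red cells and cytosol, was at 8.33, 8.39 and 8.60 in RT and at 8.23, 8.64 and 8.93 in RS, a change of -0.17 ± 0.12 (adjusted p = 0.334 by limma). In the 10 arrays other than RS-4 and RS-6, the change of Prdx2 was -0.34 and it was called lower (adjusted p = 0.0569 by limma). These values are from the brighter transcript cluster of Prdx2, and over all 12 arrays the other one differed by -0.025 (adjusted p = 0.893 by limma). The call of Prdx2 as lower thus rests on 1 of its 2 transcript clusters, and the other was not examined in the 10 arrays. Srxn1, which restores overoxidized peroxiredoxins, was at 5.69, 5.815 and 5.89 in RT and at 5.59, 5.965 and 6.28 in RS, with every RT mouse inside the RS range (-0.13 ± 0.10, adjusted p = 0.391 by limma).

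Of the thioredoxin system, 1 of 5 genes was called. Txn1, the cytosolic thioredoxin that recharges peroxiredoxins, was at 8.57, 8.665 and 8.93 in RT and at 7.52, 8.32 and 8.60 in RS. RS-1 (8.60) reached into the RT range and RS-6 (7.52) lay far below all other mice, and 4 RT mice exceeded every RS mouse. The change was 0.46 ± 0.14 (adjusted p = 0.0377 by limma), and 0.30 in the 10 arrays other than RS-4 and RS-6 (adjusted p = 0.0837 by limma). Txnrd1, the cytosolic reductase that returns electrons from NADPH to thioredoxin, was at 6.34, 6.61 and 6.67 in RT and at 6.44, 6.55 and 6.79 in RS. The groups overlapped in all but 1 RT mouse (-0.01 ± 0.09, adjusted p = 0.957 by limma). Txnrd3, which joins glutaredoxin and thioredoxin reductase domains, differed by 0.26 (adjusted p = 0.119 by limma), and Txnrd2, its mitochondrial relative, by 0.08 (adjusted p = 0.460 by limma). Txn2, the mitochondrial thioredoxin, did not pass.

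The members were also counted by compartment. Of the 5 secreted or endoplasmic reticulum enzymes (Gpx3, Gpx7, Gpx8, Prdx4 and Sod3), 2 were higher in RT and the median change was 0.41. Of the 4 matrix enzymes (Prdx3, Sod2, Txn2 and Txnrd2), 0 were called and the changes ran from 0.02 to 0.08. All 9 of these genes have signals above the median, where 22.9% of all genes were called higher, so counts this small say little about a compartment. Gpx1, which is found in mitochondria as well as cytosol, was not placed in the matrix group. Prdx3, the matrix peroxiredoxin, was at 8.09 to 8.38 in RT and at 7.77 to 8.60 in RS, a change of 0.07 (adjusted p = 0.752 by limma). Sod2, the manganese superoxide dismutase of the matrix, was at 9.27 to 9.39 in RT and at 9.04 to 9.48 in RS, a change of 0.07 (adjusted p = 0.573 by limma). Sod3, the extracellular dismutase, differed by 0.14 (adjusted p = 0.345 by limma). Leaving out RS-4 and RS-6, the median of the secreted group was 0.12 and 2 of 5 were still called higher, and the median of the matrix group was 0.0079. The difference between these small groups of genes was not tested.

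**Figure D4:**
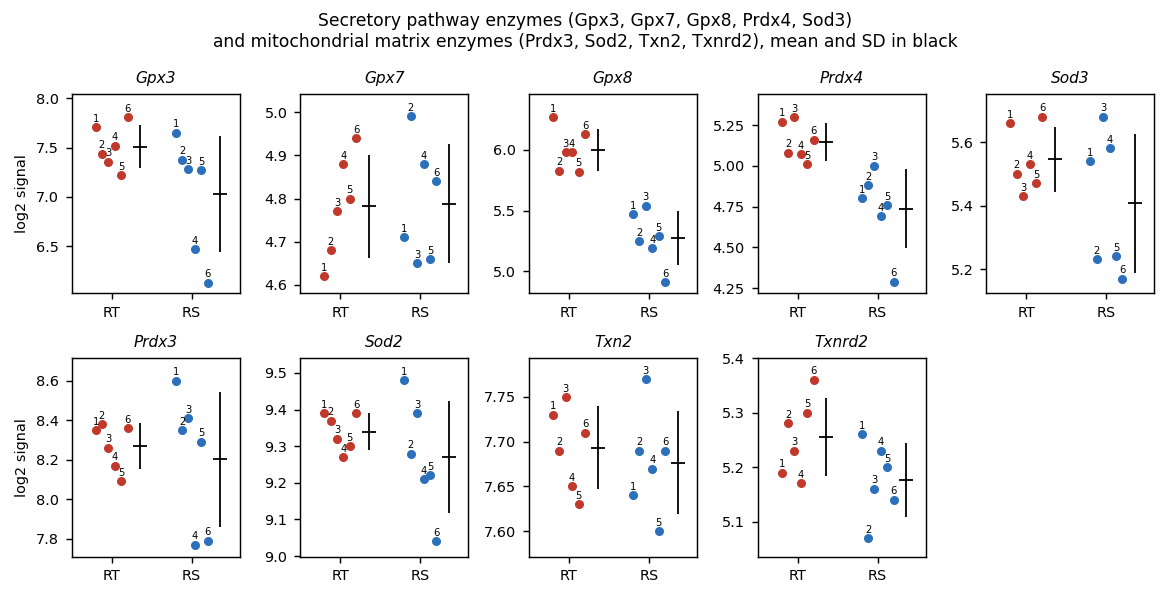
Log2 signal (y axis) of 5 secretory pathway enzymes (top) and 4 mitochondrial matrix enzymes (bottom), 1 numbered point per mouse, RT in red and RS in blue, with mean and SD in black. Gpx8 and Prdx4 separate the groups, while the RT points of Prdx3 and Sod2 lie within the range of the RS points.

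Catalase, the peroxisomal enzyme that splits hydrogen peroxide, was the called gene among the 4 of its role. Cat was at 7.77, 7.935 and 8.12 in RT and at 7.13, 7.505 and 7.88 in RS, with 4 RT mice above every RS mouse and RS-3 (7.88) inside the RT range. The change was 0.44 ± 0.13 (adjusted p = 0.0297 by limma), and 0.32 in those 10 arrays (adjusted p = 0.146 by limma). Sod1, the copper and zinc dismutase of the cytosol, was at 9.01, 9.135 and 9.26 in RT and at 8.81, 8.96 and 9.13 in RS. Its change of 0.16 ± 0.08 did not pass (adjusted p = 0.172 by limma), and 3 RT mice exceeded every RS mouse. In the same 10 arrays, Sod1 differed by 0.24 and was called higher (adjusted p = 0.0821 by limma).

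Glutathione S-transferases join glutathione to electrophiles such as lipid aldehydes, and 2 of the 18 cytosolic ones were higher in RT, with a median change of 0.11. Gstt1, of the theta class, was at 4.96, 5.19 and 5.49 in RT and at 4.74, 4.87 and 5.02 in RS. RT-2 (4.96) was the only RT mouse within the RS range, and the change was 0.33 ± 0.09 (adjusted p = 0.0260 by limma). Gstt1 and Gpx8 were the genes called under all 24 alternative settings. Its neighbors on chromosome 10, Gstt3, Gstt4 and Gstt2, gave other values. Gstt2 differed by 0.26 (adjusted p = 0.117 by limma), and Gstt4 by -0.32 (adjusted p = 0.111 by limma) with 5 RT mice below every RS mouse. The theta genes thus did not share 1 direction, although neither Gstt2 nor Gstt4 passed. Gstt4 had a mean signal of 3.91, below the median signal of the array, where the median change of all genes was -0.085.

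Gstm1, the main mu-class transferase of many tissues, was at 7.95, 8.145 and 8.47 in RT and at 7.22, 7.795 and 8.36 in RS. The groups overlapped widely, since RS-1 (8.36) lay above 5 of the RT mice while RS-4 (7.22) and RS-6 (7.32) were lowest. The change of 0.40 ± 0.16 was just inside the threshold (adjusted p = 0.0997 by limma), the exact permutation p was 0.0693, and without RS-4 and RS-6 the change was 0.16 (adjusted p = 0.480 by limma). Gstm2 to Gstm7 lie beside Gstm1 on chromosome 3 and none passed. The 2 transcript clusters of Gstm3 changed in opposite directions, the brighter one upward, and neither passed. Gstm6 differed by -0.34 (adjusted p = 0.110 by limma). Mu-class genes are similar in sequence, so probes may respond to more than 1 of them. Gstz1, which also acts in tyrosine breakdown, differed by 0.32 (adjusted p = 0.177 by limma), and Gstp3 by -0.25 (adjusted p = 0.124 by limma). Gstm6 and Gstp3 had mean signals of 2.40 and 3.27, below the median signal. Gsta3, Gsta4, Gsto1, Gsto2 and Gstp1 did not pass. The kappa and microsomal enzymes Gstk1, Mgst1, Mgst2 and Mgst3 did not pass, with changes of 0.14 to 0.25. Without RS-1, 6 of 18 cytosolic transferases were higher and 1 lower, and 2 of these 4 enzymes were higher. In that fit, 18.2% of all genes of any signal were called higher and 14.2% lower.

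Hmox1 and Nqo1, a pair often read as NRF2 targets, were both higher in RT. Nqo1, which reduces quinones, was at 5.23, 5.61 and 6.16 in RT and at 4.55, 5.14 and 5.42 in RS, with 5 RT mice above every RS mouse, RT-6 the highest and RS-6 the lowest. The change was 0.54 ± 0.16 (adjusted p = 0.0322 by limma), and 0.38 with RS-4 and RS-6 left out (limma adjusted p = 0.148). Hmox1, which breaks down heme and is high in macrophages that clear red cells, was at 5.17, 5.31 and 5.52 in RT and at 4.88, 5.115 and 5.25 in RS. Again 5 RT mice exceeded every RS mouse, and the change was 0.25 ± 0.09 (adjusted p = 0.0720 by limma), or 0.19 with those arrays left out (limma adjusted p = 0.240). The other genes often used as NRF2 targets, Gclc, Gclm, Srxn1 and Txnrd1, did not pass, so 2 of these 6 were called. All 6 have signals above the median, where 22.9% of all genes were called higher, so this count is near the background.

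**Figure D5:**
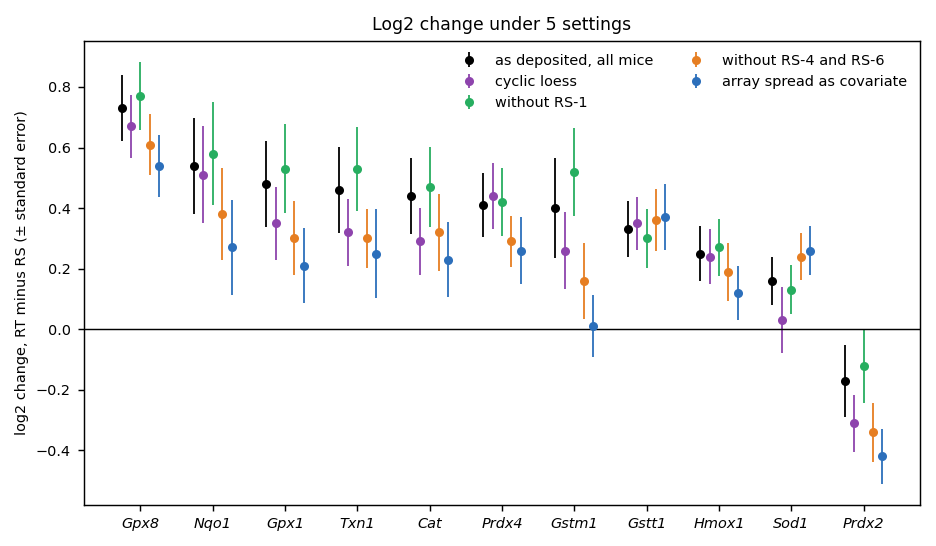
Log2 change, RT minus RS (y axis, with standard error), of the 9 called genes, Sod1 and Prdx2 under 5 settings (colors). The points of Gpx8 stay between 0.54 and 0.77, those of Gstm1 drop to 0.01 with array spread as a covariate, and Prdx2 lies lowest in that fit at -0.42.

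Genes that surround these enzymes were also counted by role. Those above the median signal are read against 22.9% of all genes called higher and 6.82% called lower. Those below it are read against 3.42% called higher and 15.2% called lower. Of the genes measured, 9 of 10 lay above the median signal for NRF2 and its partners, 13 of 16 for glutathione turnover, 12 of 12 for glutaredoxins, 13 of 13 for selenoproteins, 9 of 10 for NADPH supply, 6 of 14 for oxidases and 8 of 9 for heme and ferritin genes. Of NRF2 and its partners, 2 of 10 were higher and 0 lower, with a median change of 0.05. Keap1, which directs NRF2 to degradation, averaged 6.56 ± 0.08 in RT and 6.30 ± 0.14 in RS (SD, n = 6 each; change 0.26, adjusted p = 0.0395 by limma), and Sqstm1, an autophagy receptor that binds KEAP1, averaged 9.59 ± 0.15 in RT and 9.33 ± 0.20 in RS (adjusted p = 0.0956 by limma). Nfe2l2, the gene of NRF2 itself, did not pass (0.17, adjusted p = 0.184 by limma). Leaving out RS-4 and RS-6 gave 0 called genes among these 10, and leaving out RS-1 gave 3 higher and 1 lower.

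Glutathione turnover and cystine transport had 4 of 16 genes higher and 1 lower, with a median change of 0.07. Anpep and Dpep1, peptidases that take part in cleaving extracellular glutathione products, changed by 0.74 (adjusted p = 0.00233 by limma) and 0.68 (adjusted p = 0.0362 by limma). Dpep2, a related dipeptidase, averaged 3.81 ± 0.28 in RT and 4.59 ± 0.64 in RS and was lower (-0.78, adjusted p = 0.0330 by limma). With RS-4 and RS-6 left out, 3 were higher and 1 lower.

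Among glutaredoxins and thioredoxin-like proteins 5 of 12 were higher and 0 lower, with a median of 0.20. Glrx, which removes glutathione from protein thiols, averaged 6.92 ± 0.17 in RT and 6.48 ± 0.34 in RS (0.44, adjusted p = 0.0371 by limma), and Txndc5, a protein folding oxidoreductase of the endoplasmic reticulum, changed by 0.33 (adjusted p = 0.0248 by limma). None of the 12 was called with RS-4 and RS-6 left out (0 of 12).

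Selenoprotein synthesis and methionine sulfoxide reductases had 5 of 13 genes higher and 0 lower. Selenop, the plasma carrier of selenium, averaged 9.10 ± 0.20 in RT and 8.28 ± 0.51 in RS (0.82, adjusted p = 0.0101 by limma), and Selenon, a selenoprotein of the endoplasmic reticulum whose loss causes myopathy, averaged 4.93 ± 0.21 in RT and 4.41 ± 0.16 in RS (0.51, adjusted p = 0.00557 by limma). Both were also called with RS-4 and RS-6 left out, when they were the 2 genes of the 13 that passed. In NADPH supply 4 of 10 were higher and 0 lower. Tkt, of the pentose phosphate pathway, changed by 0.44 (adjusted p = 0.0107 by limma), and Idh1, the cytosolic isocitrate dehydrogenase that makes NADPH, by 0.45 (adjusted p = 0.0569 by limma). With RS-4 and RS-6 left out, 3 of the 10 were higher, Tkt among them and Idh1 not.

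On the side of oxidant production, 3 of 14 NADPH oxidase and xanthine oxidase genes were higher and 1 lower, with a median of -0.13. Cybb, the catalytic subunit of the phagocyte oxidase, averaged 5.18 ± 0.19 in RT and 4.54 ± 0.18 in RS (0.64, adjusted p = 0.00173 by limma), beside the macrophage markers of which 9 of 13 were higher. Nox4, an oxidase of fibers, vessels and fibroblasts, averaged 3.66 ± 0.28 in RT and 3.22 ± 0.23 in RS (adjusted p = 0.0318 by limma). Duox2, a dual oxidase, averaged 3.82 ± 0.12 in RT and 4.10 ± 0.14 in RS and was lower (-0.28, adjusted p = 0.0370 by limma). Their mean signals, 3.44 for Nox4 and 3.96 for Duox2, lay below the median signal of the array. In that range, 3.42% of all genes were called higher and 15.2% lower, with a median change of -0.085. Of heme, ferritin and metallothionein genes 2 of 9 were higher and 0 lower. These were Ftl1, the ferritin light chain (0.62, adjusted p = 0.00314 by limma), and Mt2, a metal-binding metallothionein (0.53, adjusted p = 0.0293 by limma). Leaving out RS-4 and RS-6 gave 1 of the 9 higher (Ftl1), and leaving out RS-1 gave 5 higher and 1 lower. For the oxidases, these fits gave 3 higher and 0 lower without the pair, and 4 higher and 3 lower without RS-1.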

How the data were processed

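The authors deposited 1 log2 signal per array for each of 28944 transcript clusters, after RMA normalization (robust multi-array average), and 250 ng total RNA was labelled per sample. The matrix held 0 columns of other samples. The study's methods name RMA in Expression Console in one place and SST-RMA, a variant that alters the scale of fold changes, in Transcriptome Analysis Console in another, so which of them set the size of the log2 changes is not settled. The deposited arrays still differ in median (4.40 to 4.63) and spread, and no scanner files were used here. The annotation gave 21789 transcript clusters 1 symbol, 1621 several and 5534 none. Gpx4, Gstm3, Prdx1 and Prdx2 have 2 transcript clusters each, and the brighter one on average stood for the gene. The members, the lists and the comparisons were chosen with earlier results of these data known. No array build is named in the sources used here, so coordinates are given for RefSeq promoters only.

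The difference between RT and RS was fitted in R 4.3.3 with limma 3.58.1 (lmFit, then eBayes), two-sided, with no covariate, over all 12 arrays. Scripts ran in Python 3.11.15 and were tested on simulated data. Groups and numbers were taken from the sample labels. Full values are given for each called gene and for Nqo1, Hmox1, Gclc, Gclm, Srxn1 and Txnrd1. Of other pathway genes, at most 2 per direction and list were named, those called with the largest change, and Nfe2l2 was added after its value was seen, as were the other members with a printed change. The number of arrays limits the precision. Same-numbered RT and RS arrays were not paired. Alternatives were another normalization, a filter on dim transcript clusters, other variance models, the replicate number as a block, leaving out each array, other gene summaries and a stricter threshold. Cyclic loess, array spread as a covariate and leaving out RS-4 with RS-6 were chosen after seeing the data.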

Additional observations from a re-analysis of the deposited data

Results flagged for a closer look

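In 10 of the 100 groups of 6 mice (50 genes, each in RT and in RS), 1 mouse lay far from the others of its group by Dixon's test, and chance flags about 1 in 20 groups. Among RT mice, Gsto1 was highest in RT-2 (6.53, next 6.16), Mgst1 was highest in RT-6 (7.16, next 6.95) and Gstp1 was lowest in RT-5 (8.65, next 9.17). Among RS mice, RS-6 was lowest for Gpx4 (8.48, next 8.67), Gsr (5.82, next 6.00) and Gstp1 (8.12, next 8.96). RS-4 was lowest for Gstt3 (4.11, next 4.49) and highest for Gstt4 (4.70, next 4.14). Gsto1 was lowest in RS-2 (5.94, next 6.27), and Gstm2 was highest in RS-1 (6.89, next 6.45). Of the 10, 5 were in RS-4 or RS-6, and 0 were genes called higher in RT.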

How the results depend on the processing

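None of the 9 called genes turned direction in any of the 24 alternatives, and Gpx8 and Gstt1 were called in all of them. Hmox1 was called in 12 and Gstm1 in 8. Of the 41 genes that did not pass, 23 turned direction and 16 were called in at least 1 alternative. Median centering gave 15 antioxidant genes higher, with 5883 transcript clusters higher and 2414 lower, against 3445 and 3764 as deposited. With array spread as a covariate, 3 antioxidant genes were higher and 1 lower (732 and 888 transcript clusters), and without RS-4 and RS-6, 5 were higher and 1 lower (1649 and 1791 transcript clusters). Without the dimmest 33.3% of transcript clusters, with array weights and with cyclic loess, 1 antioxidant gene was lower. A stricter adjusted p of 0.05 left 7 higher, with 2092 transcript clusters higher and 2307 lower. Leaving out 1 array gave 7 to 18 higher and 0 to 2 lower, with 18 higher and 1 lower without RS-1 and 2 lower without RS-3; the cause was not tested.

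The replicate number as a block gave 9 higher and 1 lower (Gstt4), with 8 of the 9 genes kept, Hmox1 lost and Gstt2 added. After the group mean of each transcript cluster was subtracted, same-numbered RT and RS arrays correlated at -0.24 to 0.11. By this measure, 1 of 12 arrays was closest to its own number in the other group, so the numbers were not read as pairs.

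Among the genes with a printed change, most that turned direction had changes near 0, but Gpx3 (0.48) and Gstz1 (0.32) turned with the spread covariate. With quantile normalization, the log2 change was -0.05 for Gpx4, 0.03 for Gpx7, -0.09 for Prdx1 and -0.02 for Prdx3. With median centering it was 0.07 for Gpx7 and 0.07 for Txnrd1, and with array weights 0.02 for Gpx7, -0.08 for Prdx1 and -0.02 for Prdx3. Cyclic loess gave -0.12 for Gpx4, 0.04 for Gpx7, -0.13 for Prdx1, -0.07 for Prdx3 and -0.06 for Sod2. The spread covariate gave -0.02 for Gclm, -0.04 for Gpx3, -0.02 for Gpx4, 0.05 for Gpx7, -0.04 for Gstz1, -0.29 for Prdx1, -0.24 for Prdx3, -0.05 for Sod2, 0.03 for Srxn1 and 0.04 for Txnrd1. Without RS-4 and RS-6 it was -0.01 for Gpx4, 0.03 for Gpx7, -0.21 for Prdx1, -0.14 for Prdx3 and 0.03 for Txnrd1. Leaving out 1 array turned Gpx7 (0.01 to 0.03), Txnrd1 (0.01 to 0.04), Prdx1 (-0.10 to 0.09 over all such fits), Prdx3 (-0.02 to 0.15) and Gpx4 (-0.01 at the lowest).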
